A study of Mus musculus with 14 samples.

Results

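The 10 genes described here encode enzymes of glycolysis and of the exchange between pyruvate and lactate in the mouse heart. They are *Hk1*, *Hk2*, *Pfkm*, *Pfkp*, *Aldoa*, *Pgk1*, *Pgam1*, *Pgam2*, *Eno3* and *Ldhb*. They were chosen by name, and their symbols were matched to Ensembl identifiers, which gave 10 genes of the 54532 in each count file. All 10 passed the filter on low counts in all 3 comparisons made below. RNA came from heart tissue of C57BL/6 mice, which the labels place at postnatal day 180, whereas the study's methods give a later age. The 14 libraries fall into 4 groups by label, namely YG8 (4 libraries), wild type called WT (4 libraries, the controls of YG8), KIKO-700 males (3 libraries) and KIKO-700 females (3 libraries). YG8 stands for the longer line name in the labels. YG8 and KIKO-700 (a knock-in, knockout line) are 2 lines made as models of an inherited mitochondrial disease that affects the heart, and their alleles are not described here. The study counts 1 mouse per replicate. Whether the labels YG8 and WT stand for the genotypes is not settled in these data, so directions below are those of libraries labelled YG8 relative to libraries labelled WT.

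Glycolysis splits glucose into pyruvate in the cytosol and yields some ATP without oxygen. Lactate dehydrogenase then converts pyruvate and lactate into each other. The adult heart draws most of its ATP from the oxidation of fatty acids in mitochondria, and it takes up lactate as a fuel. When mitochondria fail or the heart is overloaded, its use of glucose often grows. Several steps of the pathway are served by isozymes from separate genes, of which one is typical of striated muscle and another of many tissues.

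The libraries were Lexogen QuantSeq libraries, which read the 3′ ends of transcripts, so that a transcript gives tags in proportion to its number and not to its length. Total counts per library were 5226233 to 11650840, with the fewest in WT 3. Genes of mitochondrial DNA took 28.9% to 44.6% of them, and the 10 enzymes took 0.110% (in WT 3) to 0.330% (in KIKO-700 male 1). Levels are given as CPM, that is counts divided by the scaled library size (TMM factors) and brought to a common total. The ventricular heart muscle markers were high throughout, with sums of 24040 to 47590 CPM over 10 genes. In the 6 KIKO-700 libraries *Xist* and Y-linked genes fitted the sex on the label. In the YG8 experiment, whose labels give no sex, 5 of 8 libraries held *Xist* at female levels. Those 5 are YG8 1, YG8 3, WT 1, WT 2 and WT 4, so the sexes are not balanced between the labels. The study, by contrast, reports males alone for this line, and the difference was not resolved.

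Between the libraries labelled YG8 and WT, 9 of the 10 enzymes did not pass even an unadjusted p under 0.05, and none passed the adjusted one (edgeR), which 0% of all genes did. The exception was *Pgam1*, the phosphoglycerate mutase of many tissues, at 2.45 ± 0.654 CPM in libraries labelled YG8 and 4.70 ± 1.26 CPM in those labelled WT (SD, n = 4 each). In simulated data for this comparison, 8 of 100 genes with a log2 change of 1 passed the adjusted threshold. The lack of adjusted calls therefore says little about changes of that size. Over all genes 6.05% passed the unadjusted threshold (718 of 11875), so 1 of 10 is near the background. Between KIKO-700 males and females, 0 of the 10 passed it, against 7.14% of all genes (843 of 11801). Neither edgeR, DESeq2, limma-voom nor limma-trend called one of the 10 there. The third comparison set the 6 KIKO-700 libraries against the 8 libraries labelled YG8 and WT. In it *Hk1* and *Pgam2* were about 2-fold higher and *Pgk1* was lower, at adjusted p-values of 0.000374, 0.000757 and 0.00184 (edgeR). That is 3 of 10, against 36.3% of all genes (4733 of 13023). The KIKO-700 libraries differ from the other 8 in line and in cohort, and these cannot be told apart here. WT hearts of the KIKO-700 cohort were not analysed here.

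**Figure D1:**
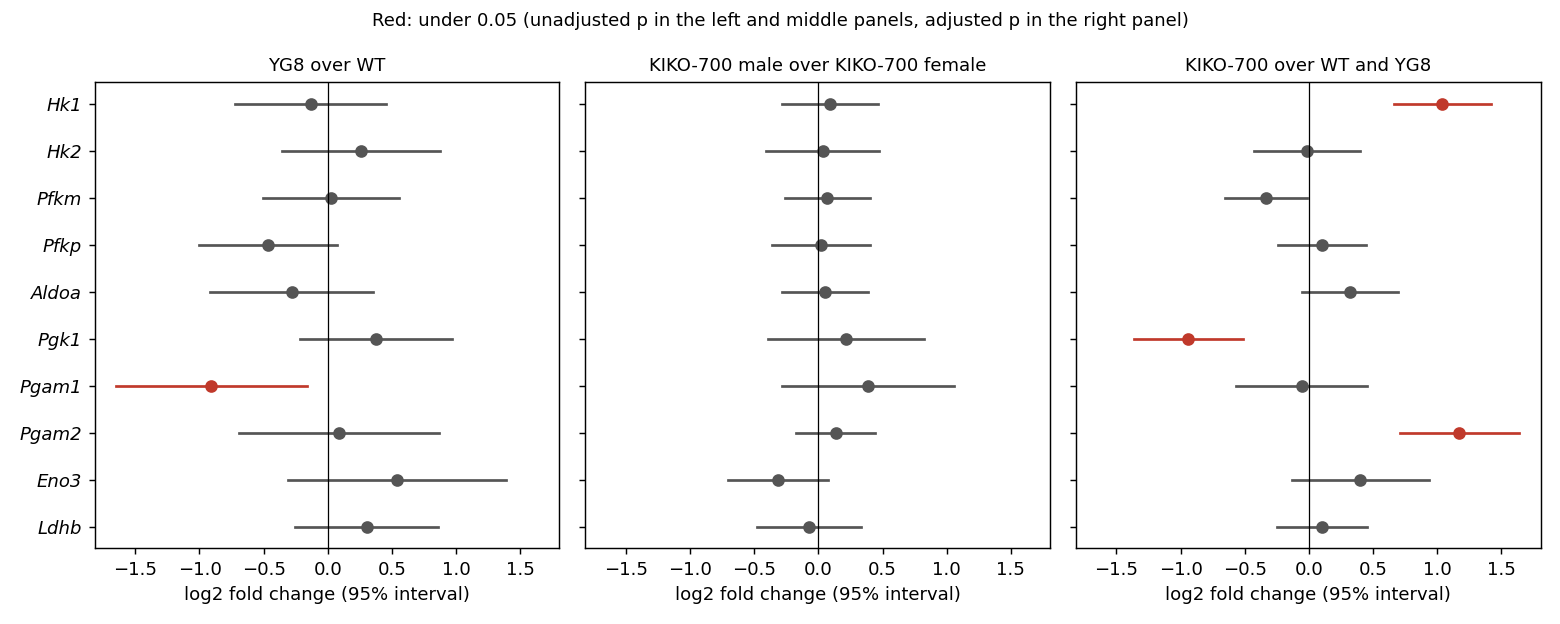
Log2 fold changes of the 10 enzymes in the 3 comparisons, as points with 95% intervals from edgeR. Red marks an unadjusted p under 0.05 in the left and middle panels and an adjusted p under 0.05 in the right panel. Only *Pgam1* is red on the left and none is red in the middle, while *Hk1*, *Pgk1* and *Pgam2* are red on the right.

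Hexokinase phosphorylates glucose and so holds it in the cell. *Hk1* (chromosome 10 of GRCm38, 62268855 to 62379908, minus strand) encodes the form that predominates in brain and red blood cells. It stood at 28.1, 38.4, 50.1 and 30.6 CPM in libraries labelled YG8, against 54.7, 31.0, 30.2 and 49.3 CPM in those labelled WT. Both ranges overlap nearly whole, and the log2 fold change was −0.13 (95% interval −0.72 to 0.46). In KIKO-700 males *Hk1* stood at 101, 80.9 and 67.3 CPM, against 71.6, 73.5 and 87.6 CPM in females. Males and females overlap too, with a log2 fold change of 0.09 (−0.28 to 0.46). All 6 KIKO-700 libraries lay above all 8 others. Their mean was 80.3 ± 12.4 CPM (SD, n = 6), against 39.1 ± 10.8 CPM in the libraries labelled YG8 and WT (SD, n = 8). On the log2 scale the difference was 1.04 (standard error 0.18), and an exact two-sided permutation test over libraries gave p = 0.000666. Of all genes, 6.73% had KIKO-700 libraries wholly above the others.

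*Hk2* (chromosome 6, 82725025 to 82774454, minus strand) encodes the insulin-responsive hexokinase of striated muscle and fat. It ranged from 61.4 to 90.4 CPM in libraries labelled YG8 and from 34.7 to 92.7 CPM in those labelled WT. The lowest of these was WT 3. It stood at 49.95, 83.8 and 92.2 CPM in KIKO-700 males, against 72.4, 72.0 and 75.7 CPM in females. None of the 3 comparisons moved it past its spread, and the KIKO-700 mean of 74.4 ± 14.3 CPM (SD, n = 6) lay beside 75.1 ± 19.4 CPM in the other libraries (SD, n = 8). The log2 fold change there was −0.01, with an interval of −0.43 to 0.40, and its sign turned under several settings.

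*Hk1* has 2 start regions in RefSeq, and both are shown because *Hk1* differed between the cohorts while *Hk2* gave no call. Each window runs from 250 bases before to 50 bases after the start, 5′ to 3′ on the gene's strand, on GRCm38.p6. Capitals mark ACGTG, the core letters bound by hypoxia-inducible factor, GGGCGG, the GC box bound by Sp1, and the MEF2 consensus, the site of a muscle transcription factor. Each was searched on both strands, and overlapping matches were counted apart. The first *Hk1* window is chr10:62379859-62380158 and the second chr10:62340372-62340671, both on the minus strand.
Hk1 first window: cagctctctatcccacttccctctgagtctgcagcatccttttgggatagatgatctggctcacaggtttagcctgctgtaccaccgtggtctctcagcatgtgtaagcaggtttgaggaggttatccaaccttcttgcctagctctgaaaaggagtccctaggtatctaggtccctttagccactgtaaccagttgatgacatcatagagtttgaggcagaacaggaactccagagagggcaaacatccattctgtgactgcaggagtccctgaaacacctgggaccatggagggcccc
Hk1 second window: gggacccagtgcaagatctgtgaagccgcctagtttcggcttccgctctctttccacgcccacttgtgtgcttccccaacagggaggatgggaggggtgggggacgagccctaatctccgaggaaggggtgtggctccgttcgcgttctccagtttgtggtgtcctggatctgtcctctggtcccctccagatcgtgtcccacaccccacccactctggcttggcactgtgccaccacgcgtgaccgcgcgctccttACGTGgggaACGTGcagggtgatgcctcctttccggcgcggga
The first window holds 1 CG and none of the marked motifs, and the second holds 20 CG and 2 matches of ACGTG. Of the 32851 windows of this length in the table, 19.6% hold ACGTG, 35.7% GGGCGG and 1.86% the MEF2 consensus. All 10 enzymes matched entries, with 16 windows in all, of which 8 hold ACGTG, 6 GGGCGG and 1 the MEF2 consensus. Windows of *Pfkm* and of *Aldoa* overlap one another. These matches describe letters only.

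**Figure D2:**
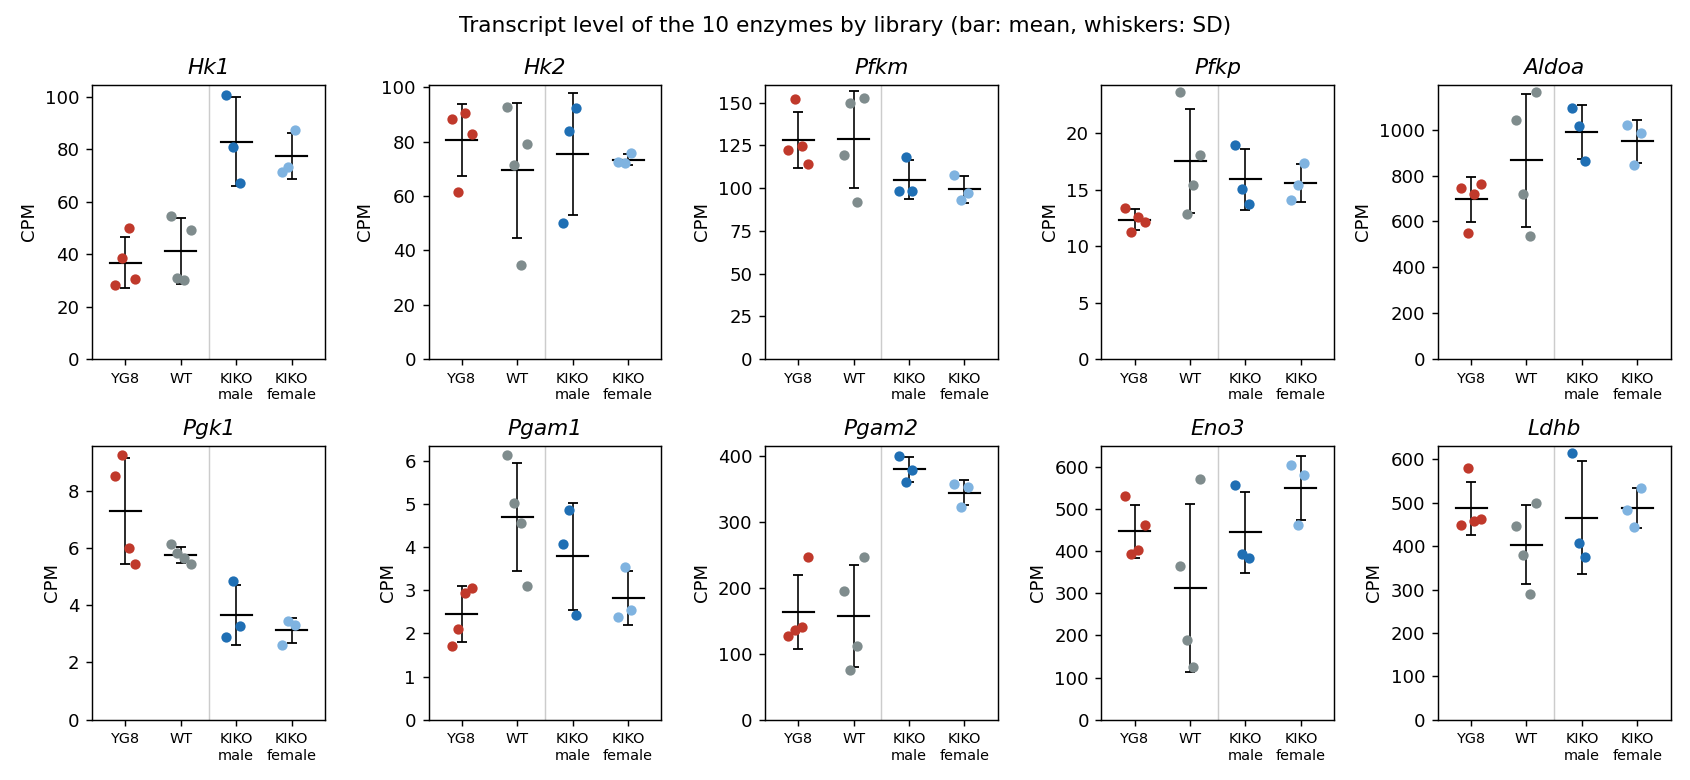
CPM of each enzyme in every library (points), with the group mean (bar) and SD (whiskers), in 10 panels with axes that start at 0. The KIKO-700 points of *Hk1* and *Pgam2* lie above, and those of *Pgk1* below, all points labelled YG8 and WT.

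Phosphofructokinase commits sugar to glycolysis. *Pfkm* (chromosome 15, 98092589 to 98132451, plus strand), the muscle subunit, stood between 114 and 152 CPM in libraries labelled YG8 and between 92.0 and 153 CPM in those labelled WT. The log2 difference was 0.03 (−0.50 to 0.56). In KIKO-700 libraries it was 98.2 to 118 CPM in males and 92.7 to 108 CPM in females. The KIKO-700 libraries averaged 102 ± 9.23 CPM (SD, n = 6), against 128 ± 21.6 CPM in the other 8 (SD, n = 8). The log2 fold change of −0.33 (standard error 0.15) missed the threshold at an adjusted p of 0.0928 (edgeR). It passed without WT 3, which had the lowest *Pfkm* level, at a log2 fold change of −0.40 and an adjusted p of 0.0359 (edgeR, 0.0359 to 0.372 over all settings).

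*Pfkp* (chromosome 13, 6579768 to 6648777, minus strand) encodes the platelet-type subunit. It stood at 13.4, 11.2, 12.6 and 12.1 CPM in libraries labelled YG8, against 23.7, 12.9, 15.4 and 18.1 CPM in those labelled WT. The libraries labelled YG8 were close together and low, and WT 2 fell inside their range. The log2 fold change was −0.47 (standard error 0.25, interval −1.01 to 0.07), and the exact permutation test gave p = 0.0571, where 0.0286 is the smallest possible. Without WT 2, or with scaling by library size alone, the unadjusted p was 0.0375 and 0.0498 (edgeR). KIKO-700 males and females were alike in range, at 13.8 to 19.0 and 14.1 to 17.4 CPM.

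*Aldoa* (chromosome 7, 126795234 to 126800751, minus strand), the aldolase of muscle that splits fructose bisphosphate, was the most counted of the 10 enzymes. It ranged from 550 to 765 CPM in libraries labelled YG8 and from 537 to 1164 CPM in those labelled WT, with a log2 fold change of −0.28 (−0.92 to 0.35). KIKO-700 libraries held 862 to 1095 CPM in males and 844 to 1020 CPM in females. Their log2 fold change over the other 8 libraries was 0.32 (standard error 0.18, adjusted p = 0.165 from edgeR). Without WT 4, which had the highest *Aldoa* level, it was 0.42 with an adjusted p of 0.0484 (0.0484 to 0.628 over all settings). A second row with the symbol *Aldoa* held no count.

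*Pgk1* (X chromosome, 106187100 to 106203699, plus strand) encodes phosphoglycerate kinase, the first enzyme of the pathway that makes ATP. It was counted with 85, 75, 41 and 50 reads in libraries labelled YG8, against 58, 73, 26 and 37 in those labelled WT. These gave 8.50, 9.24, 6.01 and 5.45 CPM in libraries labelled YG8, against 6.13, 5.81, 5.64 and 5.45 CPM in those labelled WT. YG8 1 and YG8 2 lay above all libraries labelled WT, and YG8 3 and YG8 4 did not. On the log2 scale YG8 over WT was 0.38 (−0.22 to 0.97).

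In KIKO-700 males *Pgk1* stood at 2.88, 4.86 and 3.27 CPM, against 2.62, 3.44 and 3.30 CPM in females. All 6 were below all 8 other libraries, with 3.40 ± 0.778 CPM in KIKO-700 (SD, n = 6) and 6.53 ± 1.48 CPM in the others (SD, n = 8). The log2 fold change was −0.94 (standard error 0.20), and the exact two-sided permutation test gave p = 0.000333, the smallest possible. Of all genes, 4.28% had KIKO-700 libraries wholly below the others. The level of *Pgk1* itself is uncertain, since the transcripts of 2 processed pseudogenes with counts, *Gm5537* and *Pgk1-rs7*, match it at 100% identity over more than a read length. Together they held 183 counts against 620 of *Pgk1*, and 5.19% to 48.8% of the sum in single libraries. With these copies added, the KIKO-700 log2 fold change was −1.02 (adjusted p = 0.000668 from edgeR). The same addition moved *Pgk1* in libraries labelled YG8 over WT to 0.60, with an unadjusted p of 0.0352 (edgeR, 0.0352 to 0.606 over all settings). How many reads that fit several copies were dropped before the counts were made was not tested.

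The *Pgk1* window is shown because *Pgk1* was the one enzyme of the 10 that was called lower in KIKO-700 libraries at the adjusted threshold with all libraries. It is chrX:106186850-106187149 on the plus strand, with the same motifs in capitals.
Pgk1: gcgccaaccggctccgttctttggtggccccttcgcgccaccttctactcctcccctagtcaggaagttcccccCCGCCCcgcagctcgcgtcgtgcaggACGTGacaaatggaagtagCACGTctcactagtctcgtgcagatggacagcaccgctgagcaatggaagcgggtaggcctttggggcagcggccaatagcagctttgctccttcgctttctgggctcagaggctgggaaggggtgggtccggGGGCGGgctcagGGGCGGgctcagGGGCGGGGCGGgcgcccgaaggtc
It holds 24 CG, against a median of 7 over all windows, with 2 matches of ACGTG and 5 of GGGCGG.

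Phosphoglycerate mutase moves the phosphate of 3-phosphoglycerate. Its genes code for the form of many tissues (*Pgam1*, chromosome 19, 41911923 to 41918660, plus strand) and the muscle form (*Pgam2*, chromosome 11, 5801640 to 5803733, minus strand). *Pgam1* was counted with 17, 17, 20 and 28 reads in libraries labelled YG8, against 58, 63, 21 and 21 in those labelled WT. These gave 1.70, 2.09, 2.93 and 3.05 CPM in libraries labelled YG8, against 6.13, 5.01, 4.56 and 3.09 CPM in those labelled WT. Every library labelled YG8 was below every library labelled WT, but YG8 4 and WT 4 were nearly equal. In this direction 2.42% of all genes did not overlap. The log2 fold change was −0.91 (standard error 0.35, 95% interval −1.65 to −0.17), with an unadjusted p of 0.02 and an adjusted p of 0.787 (edgeR, unadjusted 0.0103 to 0.0624 over all settings). The exact two-sided permutation test gave p = 0.0286, the smallest possible with 4 against 4. The unadjusted call was lost without WT 1 (log2 fold change −0.78, p = 0.0615), without YG8 1 (−0.76, p = 0.0624) and without WT 2 and WT 3 together (−0.88, p = 0.0526), by edgeR's test and not the exact one.

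In KIKO-700 males *Pgam1* stood at 4.08, 4.86 and 2.43 CPM, against 2.38, 3.55 and 2.54 CPM in females. All 6 values lie within the range of the libraries labelled YG8 and WT, and the log2 fold change over those 8 was −0.06 (−0.57 to 0.45). Pseudogene copies held 5 counts against 414 of *Pgam1*. One of them, *Pgam1-ps2*, matches it at 100% identity, so reads common to both may be missing from these counts.

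*Pgam2* stood at 127, 137, 141 and 247 CPM in libraries labelled YG8, against 195, 75.9, 112 and 246 CPM in those labelled WT. WT 2 had the lowest level, YG8 4 and WT 4 the highest, and the log2 fold change was 0.09 (−0.69 to 0.86). In KIKO-700 males *Pgam2* stood at 399, 361 and 378 CPM, against 357, 322 and 353 CPM in females. Each male library lay above each female library, as 5.82% of all genes did. This was a log2 fold change of 0.13 (−0.18 to 0.44), and the exact test gave p = 0.1, the smallest possible with 3 against 3. All 6 KIKO-700 libraries exceeded all 8 others, with 362 ± 25.9 CPM (SD, n = 6) against 160 ± 62.8 CPM (SD, n = 8). Their log2 fold change was 1.17 (standard error 0.22), with an exact permutation p of 0.00133. No gene matched the transcripts of *Pgam2* over a read length, and the same was found for *Hk1*, *Hk2*, *Pfkp* and *Eno3*.

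The start regions of both mutase genes are shown because their ratio differed between the cohorts. The *Pgam2* window is chr11:5803747-5804046 on the minus strand and the *Pgam1* window chr19:41911621-41911920 on the plus strand.
Pgam2: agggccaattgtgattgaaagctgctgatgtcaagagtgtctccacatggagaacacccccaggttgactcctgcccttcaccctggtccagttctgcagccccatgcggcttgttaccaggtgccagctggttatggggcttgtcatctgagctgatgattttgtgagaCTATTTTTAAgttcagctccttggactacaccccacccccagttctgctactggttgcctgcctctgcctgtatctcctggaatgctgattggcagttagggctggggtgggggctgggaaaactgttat
Pgam1: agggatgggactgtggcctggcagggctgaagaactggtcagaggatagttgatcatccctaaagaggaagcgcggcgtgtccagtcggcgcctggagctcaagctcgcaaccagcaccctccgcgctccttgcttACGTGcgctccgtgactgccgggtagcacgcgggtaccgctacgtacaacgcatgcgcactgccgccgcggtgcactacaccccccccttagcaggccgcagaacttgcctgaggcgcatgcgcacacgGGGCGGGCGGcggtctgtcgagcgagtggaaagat
The *Pgam2* window holds 1 CG and the one match of the MEF2 consensus among the 16 windows, with neither ACGTG nor GGGCGG. The *Pgam1* window holds 30 CG, 1 match of ACGTG, 2 overlapping matches of GGGCGG and no MEF2 consensus. CANNTG, the E-box bound by factors such as MyoD, is present in 72.3% of all windows, with 5 matches in that of *Pgam2* and none in that of *Pgam1* (it is not in capitals, and it overlaps ACGTG where the letters are CACGTG).

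*Eno3* (chromosome 11, 70657202 to 70662513, plus strand) encodes the muscle enolase, which makes phosphoenolpyruvate. It stood at 530, 393, 402 and 461 CPM in libraries labelled YG8, against 365, 188, 126 and 572 CPM in those labelled WT. The libraries labelled WT were spread widely, with WT 4 above and the other 3 below all libraries labelled YG8. Their coefficient of variation was 64.0%, against 14.2% in libraries labelled YG8. Its log2 fold change was 0.54 (−0.31 to 1.39). Without WT 4 it was 1.05 with an unadjusted p of 0.00716 and an adjusted p of 0.164 (edgeR). Without WT 2 and WT 3 together it was −0.04, so the sign rests on which libraries labelled WT are kept.

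In KIKO-700 males *Eno3* stood at 556, 393 and 384 CPM, against 603, 463 and 581 CPM in females. Male 1 was high and males 2 and 3 lay below all females, and the log2 fold change was −0.31 (−0.70 to 0.07). Without KIKO-700 male 1 it was −0.50 with an adjusted p of 0.026 (edgeR, 0.026 to 0.999 over all settings). In that setting 864 genes passed the adjusted threshold, against 8 with all 6 libraries (0.0678% of those tested). The unadjusted one was passed by 2610 genes, against 843 of 11801 with all 6 libraries, so calls rose across genes. *Eno3*, *Hk2* (0.26) and *Ldhb* (−0.32) were among those 2610. KIKO-700 male 1 also had the highest sum of skeletal muscle markers, 259 CPM against 72.8 to 163 CPM in the other KIKO-700 libraries. Of that sum 254 CPM was *Acta1*, which heart muscle also makes, and 3 of the 12 markers had no count in this library. The part of this in the values was not tested. Over the libraries labelled YG8 and WT, KIKO-700 libraries had a log2 fold change of 0.40 for *Eno3* (standard error 0.25, adjusted p = 0.221 from edgeR). Without WT 4 it was 0.65 (adjusted p = 0.0164, and 0.0164 to 0.415 over all settings).

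*Ldhb* (chromosome 6, 142490249 to 142507957, minus strand) encodes the heart subunit of lactate dehydrogenase, which favours the use of lactate. It stood at 450, 579, 458 and 462 CPM in libraries labelled YG8, against 446, 381, 289 and 499 CPM in those labelled WT. YG8 2 was high, the other 3 libraries labelled YG8 were close together, and WT 3 was the lowest library. On the log2 scale YG8 over WT was 0.30 (−0.25 to 0.86). KIKO-700 males stood at 615, 408 and 375 CPM and females at 484, 444 and 535 CPM, a log2 fold change of −0.07 (−0.48 to 0.33). KIKO-700 libraries averaged 477 ± 88.1 CPM (SD, n = 6), against 445 ± 84.2 CPM in the other 8 (SD, n = 8), and the log2 fold change was 0.10 (−0.25 to 0.45).

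Spread within a group differed between enzymes. In libraries labelled YG8 the coefficient of variation ran from 7.48% (*Pfkp*) to 34.5% (*Pgam2*), and in those labelled WT from 5.01% (*Pgk1*) to 64.0% (*Eno3*). In KIKO-700 it ran from 5.04% (*Pgam2*) to 32.7% (*Pgam1*) in males and from 2.79% (*Hk2*) to 22.4% (*Pgam1*) in females. With groups ordered by mean, some neighbours did not overlap. They were KIKO-700 females above WT for *Hk1*, KIKO-700 males below WT for *Pgk1*, KIKO-700 females above YG8 for *Pfkp*, and KIKO-700 males above females and females above YG8 for *Pgam2*. The share of all genes under this rule was not computed, so these are descriptions only.

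Ratios of 2 isozymes within a library do not depend on how libraries are scaled. They were added after the levels had been seen, and 12 exact permutation tests were run (4 ratios, 3 comparisons). *Hk1* over *Hk2* was 1.09 in KIKO-700 libraries (range 0.729 to 2.02, n = 6), against 0.524 in the libraries labelled YG8 and WT (0.319 to 0.869, n = 8), as geometric means. That is 2.08-fold, with exact p = 0.00133 and adjusted p = 0.016. The ranges overlap through KIKO-700 male 3 and WT 3. *Pgam2* over *Pgam1* was 114 in KIKO-700 libraries (74.3 to 155, n = 6), against 45.4 in the others (15.1 to 80.9, n = 8). That is 2.5-fold, with exact p = 0.00599 and adjusted p = 0.036. These ratios use the counts already described and are not separate evidence.

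In libraries labelled YG8, *Ldhb* over *Ldha*, the lactate dehydrogenase subunit of skeletal muscle and many tissues, was 3.27 (2.76 to 3.82), against 2.46 (1.90 to 3.00) in those labelled WT. The exact permutation p was 0.0571 (n = 4 each, adjusted 0.21). Copies of *Ldha* were not searched for, so reads it may share with other genes could be missing from this ratio. For *Pgam1* that limit is given above. *Pgam2* over *Pgam1* was 66.1 (48.1 to 80.9) in libraries labelled YG8 and 31.2 (15.1 to 79.7) in those labelled WT, with exact p = 0.114 (n = 4 each, adjusted 0.274). Without WT 4 the exact p was 0.0286, the smallest possible there. *Pfkm* over *Pfkp* was 6.49 in KIKO-700 libraries and 8.74 in the others (exact p = 0.0699, adjusted 0.21), and the exact p was 0.0157 without WT 1 and 0.0355 without WT 3. *Pfkm* over *Pfkp* was 10.4 in libraries labelled YG8 and 7.37 in those labelled WT (exact p = 0.2, adjusted 0.3), a log2 difference of 0.49, which was 0.71 without WT 2, at the smallest possible exact p of 0.0286. None of the 4 ratios passed the adjusted threshold between KIKO-700 males and females or between libraries labelled YG8 and WT.

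**Figure D3:**
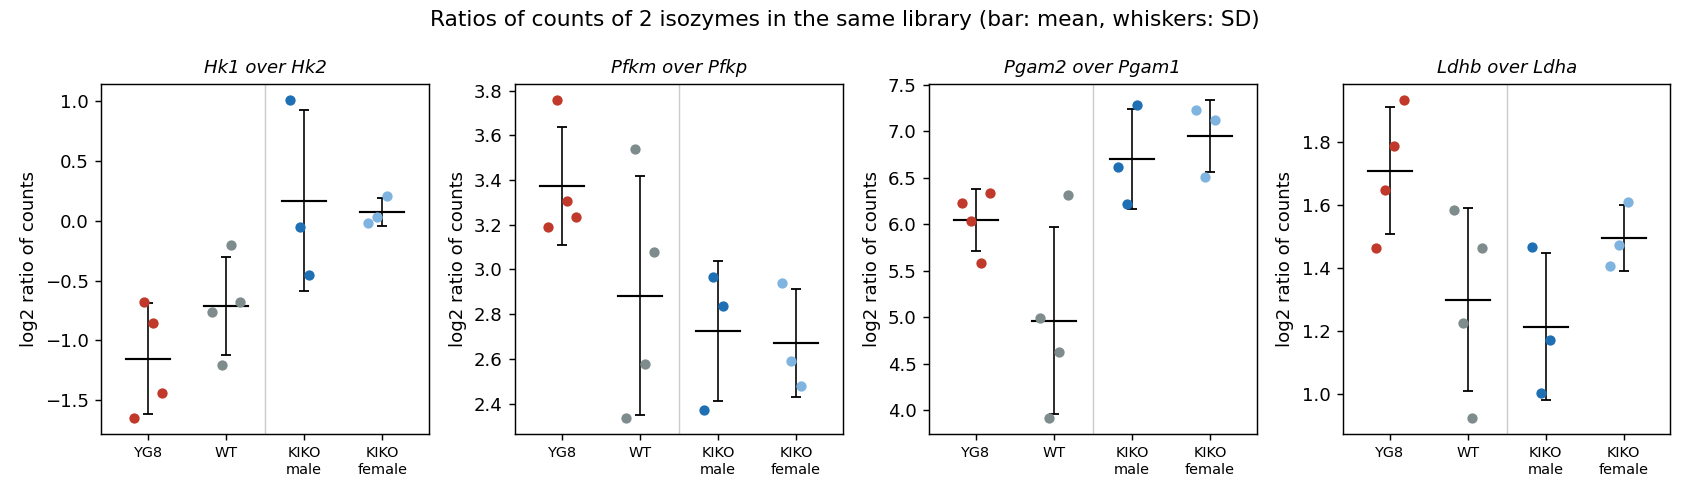
Log2 ratios of the counts of 2 isozymes in the same library, one point per library, with group mean (bar) and SD (whiskers). KIKO-700 points of *Hk1* over *Hk2* and of *Pgam2* over *Pgam1* are mostly above those labelled YG8 and WT, while *Ldhb* over *Ldha* shows no such step.

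Other genes of the pathway in the KIKO-700 libraries were read from lists of enzymes and of pathways that feed or drain glycolysis. Over the 6 lists, 33 of 85 genes tested passed the adjusted threshold in either direction, or 38.8%, which is near the 36.3% of all genes. Of 16 other enzymes tested, 6 were higher and 0 lower than in the libraries labelled YG8 and WT at the adjusted threshold, and their log2 fold changes had a median of 0.42. The same values were 2 higher, 1 lower and 0.10 for the 10 enzymes, and over all genes 17.2% were higher, 19.1% lower and the median was −0.04. *Pfkl*, the liver subunit of phosphofructokinase, was 60.8 ± 14.1 CPM in KIKO-700 libraries and 25.0 ± 6.74 CPM in the others (SD, n = 6 and 8), a log2 fold change of 1.29. *Pkm*, pyruvate kinase of muscle, was 386 ± 45.6 and 198 ± 65.0 CPM, a log2 fold change of 0.97. *Bpgm*, which makes 2,3-bisphosphoglycerate in red blood cells, had a log2 fold change of 0.97 and *Ldhd*, a D-lactate dehydrogenase of mitochondria, one of 0.64. *Gapdh* (−0.06), *Eno1* (0.02), *Ldha* (0.25) and *Tpi1* (−0.36) did not pass. *Eno1b*, another enolase entry, was among the 6 higher, with a log2 fold change of 0.99 (adjusted p = 0.0175 from edgeR). It held 5.05 ± 1.02 and 2.52 ± 1.62 CPM, and *Eno1* 2.82 ± 0.706 and 2.84 ± 1.40 CPM. Reads shared between these 2 entries, and *Eno1b* under the other settings, were not examined.

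Of 12 regulators tested, 2 were higher and 2 lower (median 0.17). For this list and those that follow, the shares over all genes were 17.2% higher and 19.1% lower. *Pfkfb3*, which makes the activator fructose 2,6-bisphosphate, had a log2 fold change of 1.15 and its heart isozyme *Pfkfb2* one of −1.19. Within the KIKO-700 libraries alone the low-count filter left *Pfkfb2* out (1.10 CPM, against 2.51 CPM in the others). It was thus tested only through the libraries where it was higher. *Prkag2* and *Prkaa2*, subunits of AMP-activated kinase, stood at 0.86 and −0.85. Of 10 genes of glucose and lactate transport, 4 were higher and 1 lower (median 0.22). *Slc16a1*, the transporter MCT1 that carries lactate, was 17.9 ± 7.56 CPM in KIKO-700 libraries and 51.7 ± 17.1 CPM in the others (SD, n = 6 and 8), a log2 fold change of −1.53. *Slc2a4*, the insulin-responsive glucose transporter GLUT4, had a log2 fold change of 0.70, *Slc2a8* one of 1.19 and *Slc2a10* one of 1.87. *Slc2a10*, among the 4 called higher, was left out by the low-count filter within the libraries labelled YG8 and WT alone. It held 3.63 CPM in KIKO-700 libraries and 0.965 CPM in the others, so it was tested only through the libraries where it was higher.

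Of 14 genes of pyruvate entry into mitochondria, 1 was higher and 5 lower (median −0.20). *Pdk2*, a kinase that switches off pyruvate dehydrogenase, had a log2 fold change of 1.5 and *Pdk4*, its isozyme induced by fasting, one of −2.68. Within the KIKO-700 libraries alone the low-count filter left *Pdk4* out too (1.09 CPM, against 7.66 CPM in the others). *Mpc2*, a subunit of the pyruvate carrier, stood at −0.78 and *Dld*, a subunit of pyruvate dehydrogenase, at −0.93. Of 19 glycogen genes, 5 were higher and 3 lower (median 0.12). *Pygm*, the muscle phosphorylase that breaks glycogen down, stood at 1.24 and *Pygb* at 0.81, while *Gys1*, glycogen synthase, stood at 1.13 and *Ugp2*, which makes UDP-glucose, at −0.98. Of 14 targets of hypoxia-inducible factor outside the pathway, 2 were higher (*Adm* 1.09, *Ndrg1* 0.54) and 2 lower (*Vegfa* −1.26, *Kdm3a* −1.21), with a median of −0.24. All these genes passed an adjusted p under 0.05 (edgeR), which *Prkag2*, *Pfkfb2*, *Slc2a4* and *Ndrg1* no longer did over the libraries labelled WT alone. *Pfkfb2* also lost its call by limma-voom (adjusted p = 0.0601) and without KIKO-700 male 1 (adjusted p = 0.053 from edgeR), where the median of the glycogen genes was 0.0033. Without WT 4 the median of the other enzymes was 0.64 and that of transport genes 0.34.

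**Figure D4:**
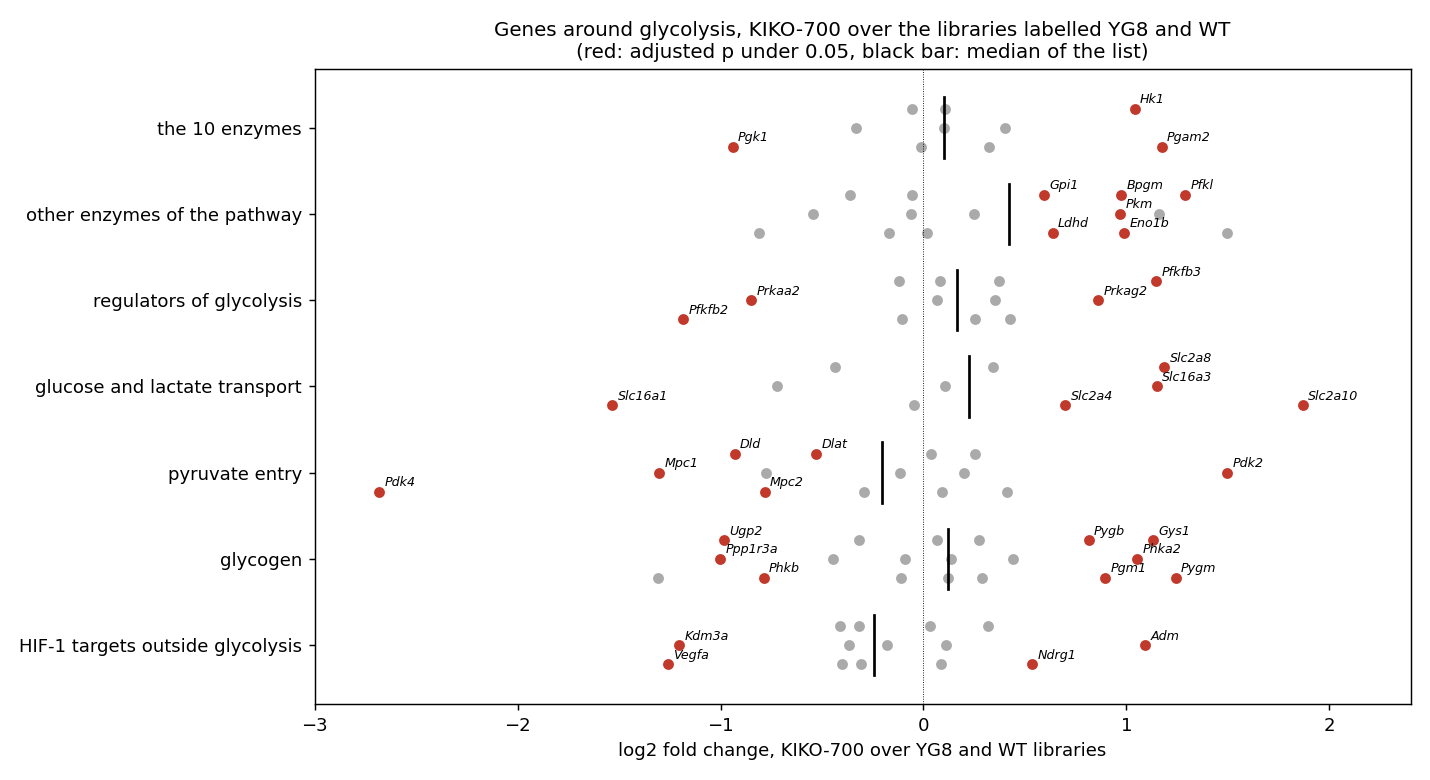
Log2 fold change of KIKO-700 libraries over the libraries labelled YG8 and WT for the 10 enzymes and 6 lists around them, one point per tested gene. Red points passed an adjusted p under 0.05 and carry their symbols, and black bars are list medians, which lie between −0.24 and 0.42.

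Markers of other cells moved with this comparison. The 7 red blood cell markers summed to 13480 to 19430 CPM in KIKO-700 males and 14980 to 17180 CPM in females, against 1303 to 4418 CPM in libraries labelled YG8 and 2025 to 5738 CPM in those labelled WT. All 5 that could be tested were higher, and *Slc4a1* was at 0 in 2 of the 14 libraries. The 7 atrial markers summed to 1623 to 2404 CPM in KIKO-700 libraries, against 109 to 1446 CPM labelled YG8 and 475 to 1238 CPM labelled WT, with 3 of 7 past the adjusted threshold. At the adjusted threshold 4 of 8 endothelial, 3 of 4 smooth muscle and 4 of 8 leukocyte markers tested were higher, and 5 of 8 fibroblast markers were lower, beside 17.2% of all genes higher and 19.1% lower. The 12 skeletal muscle markers summed to 72.8 to 259 CPM in KIKO-700 libraries, 66.0 to 125 CPM in libraries labelled YG8 and 50.5 to 115 CPM in those labelled WT. Most of that was *Acta1*, which heart muscle also makes, and the fast myosins *Myh1*, *Myh2* and *Myh4* were at most 3.69 CPM. The part of these cells in the values of *Hk1*, *Pgam2*, *Pgk1* and *Bpgm* was not tested. In RNA of heart tissue, fewer cells of a type and less RNA per cell cannot be told apart.

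In the YG8 experiment 4 of the 81 genes tested in the same lists passed the unadjusted threshold, or 4.94%, against 6.05% of all genes, and none passed the adjusted one (edgeR). *Pygm* was 205 ± 56.8 CPM in libraries labelled YG8 and 356 ± 44.2 CPM in those labelled WT (SD, n = 4 each), without overlap (as were 2.42% of all genes in this direction), with a log2 fold change of −0.77 and an unadjusted p of 0.0135 (edgeR). *Gyg*, the primer protein of glycogen, had a log2 fold change of −0.60, *Prkag2* one of −0.71 and *Fbp2*, the muscle fructose bisphosphatase, one of 0.58, at unadjusted p-values of 0.0293, 0.04 and 0.0499 (edgeR). Each of these 3 calls was lost when certain single libraries were left out. *Gyg* lost its call without WT 2, WT 3, YG8 2 or YG8 4 (−0.61 to −0.47), and *Prkag2* without WT 1, WT 3, YG8 1 or YG8 2 (−0.73 to −0.51) and with the *Xist* level as a covariate. *Fbp2* lost it by DESeq2 and limma-trend, under 6 other settings, and when any single library other than WT 4 or YG8 2 was left out. Of the 19 glycogen genes 16 had a log2 fold change below 0, with a median of −0.35 against −0.01 over all genes. That median was −0.18 without WT 1 and −0.56 with scaling by library size alone. None of 13 other enzymes, 9 transport genes, 14 genes of pyruvate entry and 14 hypoxia targets passed. Adipocyte markers summed to 6.89 to 15.2 CPM in libraries labelled YG8 and 2.60 to 107 CPM in those labelled WT, with 3 of 4 tested lower at the unadjusted threshold.

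Between KIKO-700 males and females 3 of the 79 list genes tested passed the unadjusted threshold, or 3.8%, which is below the 7.14% of all genes. They are given as values only. *Mpc1*, the other subunit of the pyruvate carrier, had a log2 fold change of 0.73 (27.2 ± 8.95 CPM in males and 16.3 ± 2.17 CPM in females, SD, n = 3 each). *Phka2*, an X-linked subunit of phosphorylase kinase, stood at −0.60 and *Ankrd37*, a hypoxia target, at −1.03. *Ankrd37* no longer passed without KIKO-700 female 1 (−0.79) or without female 3 (−0.94). None of the 14 other enzymes and 11 regulators passed. Adipocyte markers summed to 7.75 to 11.8 CPM in males, against 28.4 to 39.3 CPM in females, and all 4 that were tested were lower at the unadjusted threshold (median −1.72). *Cfd*, the most abundant of them, had a log2 fold change of −1.88 and an adjusted p of 0.00621 (edgeR). Of the 3 skeletal muscle markers tested, *Acta1* was higher in males by 1.07 on the log2 scale, at an unadjusted p of 0.00231 (edgeR). The others went the other way, *Tnni2* at −0.84 (unadjusted p = 0.027 from edgeR) and *Pvalb* at −0.27. The part of adipocyte and skeletal muscle markers in the values of the enzymes was not tested.

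The levels of several enzymes moved together from library to library. With group means removed, log2 CPM of *Aldoa* and *Eno3* had a Pearson correlation of 0.929 over the 14 libraries, and *Eno3* with *Ldhb* one of 0.743. *Pgk1* and *Pgam1* stood apart, at −0.23 and −0.01 with *Aldoa*. Among 4598 protein-coding genes with a mean of at least 10 CPM (4599 for *Pgk1* and *Pgam1*), those most like each enzyme were sought. *Plod1* was among the genes most like *Hk1* (0.901). *Hk2* was nearest to *Homer2* (0.934) and *Tm9sf4*, and *Pfkm* to *Slc25a20*, the carnitine carrier (0.848), and *Dusp8*. *Pfkp* was nearest to *Pafah1b2* (0.902) and *Ccl6*, *Aldoa* to *Dnajb2* (0.978) and *Cdh13*, and *Pgk1* to *Ecd* (0.855) and *Psmd12*. *Pgam1* was nearest to *Rad21* (0.797) and *Iws1*, *Pgam2* to *Mrpl12* (0.98) and *Ndufb9*, *Eno3* to *H2-Ke6* (0.983) and *Prpf19*, and *Ldhb* to *Pdhb*, a subunit of pyruvate dehydrogenase (0.972), and *Rcan2*. The libraries share their depth and scaling across genes, and 6.53% of the genes had a correlation over 0.8 with *Aldoa*, so these values are descriptions.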

How the data were processed

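Heart RNA of 14 mice was read as Lexogen QuantSeq 3′ libraries. The authors deposited whole-number counts of reads per Ensembl gene, 1 library per file and without normalization. In the submitters' notes STAR 2.5.0a is listed with HTSeq 0.6.1 for GRCm38.p6, whereas the study's methods name Rsubread and featureCounts with strand. Both cannot hold, and the difference was not resolved. Total counts per library were 5226233 to 11650840. Groups were taken from the labels. Results that need withheld items are not reported here. The members and lists were chosen with earlier results of these data known.

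GENCODE M21 gave symbols to 54409 of 54532 identifiers. Low genes were left out by filterByExpr in R 4.3.3. Libraries were scaled with TMM factors. Group differences were tested by robust quasi-likelihood in edgeR 4.0.16, and p-values were adjusted over all genes tested (Benjamini-Hochberg, threshold 0.05). The unadjusted threshold is given too, since the study counts genes by it. Log2 CPM used a prior count of 2. The test was checked on simulated data with known log2 changes. For YG8 over WT, a change of 1 was recovered by adjusted p in 8 of 100 genes. By unadjusted p it was recovered in 59 of them. A change of 2 was recovered in 76 (adjusted) and 93 (unadjusted) of 97 genes. Adjusted p recovered a change of 1 in 53 of 98 genes between KIKO-700 sexes. For KIKO-700 over the other libraries this was 49 of 99. In that simulation 99 genes held a change of 1 and 100 a change of 2, of 13023. In the data 4733 genes were called there, so this rate of recovery need not hold for that comparison. Single values were also tested by exact two-sided permutation of libraries. Named genes are the 10 enzymes, up to 4 genes per list and comparison with the smallest p past the threshold, and the 2 genes most correlated with each enzyme. *Gapdh*, *Eno1*, *Eno1b*, *Ldha* and *Tpi1* fall outside this rule and were picked with their values in view. Copies of the 10 enzymes alone were sought, by a match of at least 86 bases at 90% identity or more. Start regions are RefSeq windows of GRCm38.p6. Scaling was also done with RLE factors, with upper-quartile factors and by library size alone. The filter was dropped, or set to at least 10 counts in each library. Other tools were DESeq2 1.42.0, and limma-voom and limma-trend (limma 3.58.1). Further alternatives were copies added, mitochondrial DNA and Gm genes left out, the *Xist* level as a covariate, a replicate block, KIKO-700 over WT alone, and left-out libraries. Copies added by sequence match and the isozyme ratios were chosen after seeing the data.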

Additional observations from a re-analysis of the deposited data

Results flagged for a closer look

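In 2 of the 20 cases tested (10 enzymes in the 4 libraries labelled YG8 and in the 4 labelled WT), 1 library lay far from the other 3. Chance gives about 1 in 20. *Pgam2* stood at 247 CPM in YG8 4, and YG8 1 to 3 ranged from 127 to 141 CPM. *Ldhb* stood at 579 CPM in YG8 2, while YG8 1, 3 and 4 ranged from 450 to 462 CPM.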

How the results depend on the processing

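The 3 calls in KIKO-700 over the other libraries (*Hk1*, *Pgam2*, *Pgk1*) held under every setting run, with 3 to 5 of the 10 enzymes called when 1 library was left out (3591 to 5619 genes adjusted, 5386 to 6736 unadjusted, and 2826 adjusted over WT alone). For YG8 over WT, 2 enzymes passed the unadjusted threshold with library size alone, no filter, copies added by sequence match, and without WT 2 and WT 3 together, and 0 to 2 with 1 library left out (0 to 146 genes adjusted, 484 to 1695 unadjusted). There genes passing the adjusted threshold were 107 with no filter and 7 by DESeq2, against 0, and 1727 passed the unadjusted one with no filter. Between KIKO-700 sexes the adjusted count was 105 with no filter, 2 with at least 10 counts in each library and 18 by DESeq2, against 8, and 4 to 864 with 1 library left out. The unadjusted count was 1475 with no filter and 460 to 2610 with 1 library left out, with 0 to 3 enzymes. Library size alone moved the median of all genes to −0.21 for YG8 over WT.

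The numbers of the replicates paired no libraries, since correlations were −0.21, 0.23, −0.03 and 0.11 in the YG8 experiment and −0.17, −0.04 and −0.17 in KIKO-700. With the replicate number as a block, 2 enzymes passed the unadjusted threshold for YG8 over WT (*Pgam1*, and *Eno3* at 0.78), the median of the other enzymes there was 0.020, and between KIKO-700 sexes *Hk2* was −0.014 and the median of hypoxia targets −0.014.

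Some directions turned, also of *Eno3* and *Hk2* for YG8 over WT (0.54 and 0.26 with all libraries). For YG8 over WT, *Pfkm* was −0.014 with upper-quartile factors, −0.15 with library size alone and −0.055 without WT 2 and WT 3. *Hk2* was −0.0099 with library size alone and −0.050 without that pair, *Pgam2* −0.095 and −0.41, and *Eno3* −0.042 without the pair. The median of hypoxia targets was −0.015 with upper-quartile factors, −0.18 with library size alone and −0.014 without the pair, that of regulators 0.027 without the pair, and that of other enzymes 0.0078 by limma-voom, 0.026 by limma-trend and 0.023 with *Xist*. Between KIKO-700 sexes *Hk2* was −0.018 by limma-voom and limma-trend, the median of hypoxia targets −0.0085 with upper-quartile factors, −0.022 by limma-voom and −0.018 by limma-trend, and that of other enzymes −0.022 with no filter. For KIKO-700 over the others, *Hk2* was 0.090 with library size alone, 0.018 with no filter, 0.014 by limma-voom, 0.017 by limma-trend, 0.045 with *Xist* and 0.091 over WT alone, *Pgam1* was 0.055 with library size alone, and over WT alone *Pfkp* was −0.16 and the median of glycogen genes −0.10.

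With 1 library left out, YG8 over WT ran from −0.31 to 0.00032 for *Hk1*, −0.11 to 0.14 for *Pfkm* and −0.20 to 0.42 for *Pgam2*, and list medians from −0.052 to 0.065 (hypoxia targets), −0.32 to 0.098 (transport), −0.13 to 0.17 (other enzymes) and −0.14 to 0.057 (regulators). KIKO-700 males over females ran from −0.025 to 0.14 for *Aldoa*, −0.070 to 0.22 for *Hk1*, −0.14 to 0.26 for *Hk2*, −0.32 to 0.061 for *Ldhb*, −0.014 to 0.14 for *Pfkm*, −0.12 to 0.12 for *Pfkp* and −0.014 to 0.35 for *Pgk1*, the log2 ratio of *Hk1* over *Hk2* from −0.33 to 0.41, that of *Pfkm* over *Pfkp* from −0.066 to 0.23, and list medians from −0.080 to 0.058 (hypoxia targets), −0.16 to 0.015 (transport), −0.064 to 0.19 (other enzymes) and −0.051 to 0.024 (regulators). KIKO-700 over the others ran from −0.12 to 0.11 for *Hk2*, −0.015 to 0.19 for *Ldhb* and −0.16 to 0.086 for *Pgam1*. The cause was not tested.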
